A study of Mus musculus with 12 samples.

Results

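Glucose metabolism was followed through 38 genes, from the carriers that bring glucose into the cell to the enzymes that oxidise pyruvate, store glycogen or release lactate. The genes were listed by name, and their probes were found by matching the accession of each array probe to a gene symbol. All 38 listed genes were found, through 58 of the 55681 probes on the array, among 29778 genes or unnamed features tested. For each of the 38 genes the brightest probe was well above background on all 12 arrays, so the filter on dim probes removed none of them. None was saturated on any array.

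The samples were total RNA from the apex of the heart of 15-week-old male C57BL/6J mice. It was hybridised to 12 Agilent arrays with 1 colour each, and the 4 groups had 3 arrays apiece. By the series' design, every animal carried 1 knock-in allele of Nkx2-5, a homeodomain transcription factor of heart muscle, opposite a wild-type allele (the labels write "/+"). In I183M/+ the isoleucine at residue 183 was replaced by methionine, in I183P/+ it was replaced by proline, and delta/+ carried a full deletion of the gene. In control/+ the isoleucine was replaced by isoleucine, so the controls were knock-in animals too, with the wild-type protein. The labels do not say whether the 3 samples of a group came from separate animals, and p-values below measure the spread between these samples. The apex holds several cell types, and fewer cells of a type cannot be told apart from less RNA per cell.

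Glucose enters heart muscle mainly through the carriers GLUT1 (Slc2a1) and the insulin-responsive GLUT4 (Slc2a4), is trapped by hexokinase, and is committed to glycolysis by phosphofructokinase-1. Phosphofructokinase-1 is activated by fructose 2,6-bisphosphate, which the 4 bifunctional Pfkfb enzymes make and break down. Pyruvate then leaves as lactate or enters the mitochondrion for oxidation by the pyruvate dehydrogenase complex, which the Pdk kinases switch off. The adult heart lives mostly on fatty acids, with glucose and lactate as further fuels.

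Levels are log2 processed intensities relative to the 75th percentile of the same array. A level compares arrays for the same probe and not genes with each other. The array of control replicate 1 was unlike the other 11: 99.1% of its spots were well above background, against 51.2% to 75.2% elsewhere, and its best rank correlation with another array was 0.847, against 0.973 to 0.988. Of the 38 genes, 36 lay below their mean over the other 11 arrays on it, by a median of 1.34 on the log2 scale, while the median feature lay 0.2 above. On the other 11 arrays the median deviation of the 38 genes lay between -0.12 and 0.05. Control comparisons are therefore given over all 12 arrays and again without control replicate 1. Slide 1 held all control and I183M/+ arrays and I183P/+ replicates 1 and 2, and slide 2 held I183P/+ replicate 3 and the delta/+ arrays. No slide held both delta/+ and control/+ arrays, or both delta/+ and I183M/+ arrays. With slide as a block these 2 comparisons rest on I183P/+ replicate 3, the only array that shares a slide with delta/+. Such values are given for some genes only, and the block also moved delta/+ folds of other genes. Nkx2-5 itself read 3.77, 3.79 and 3.93 in delta/+ hearts, against 3.11, 4.45 and 4.56 in control/+ hearts. Without control replicate 1 the delta/+ level was lower by a log2 fold of -0.68 ± 0.11 (SE), which did not pass the threshold (limma, adjusted p = 0.0622). With all arrays the fold was -0.21 ± 0.34 (limma, adjusted p = 0.868), and an exact two-sided permutation of the arrays gave p = 0.8. The delta/+ level of Nkx2-5 was also lower than in I183M/+ (-0.75) and I183P/+ (-0.77). Without control replicate 1 the SE was 0.10 for each, and neither passed (limma, adjusted p = 0.0552 and 0.0763). With all arrays the SE was 0.34. The same permutation gave p = 0.1 for each, the smallest value that 3 against 3 arrays allow. Ventricular markers summed to a log2 level of 12.23 to 12.52 on the mutant arrays and 12.35 to 12.39 on control replicates 2 and 3. All 10 were well above background on those 11 arrays. Some other marker lists were less even. Endothelial sums were 5.61 to 5.76 in I183P/+ and 5.45 to 5.63 in delta/+, against 5.21 to 5.33 in those controls, and overlapped in I183M/+. Atrial sums were 5.12 to 6.32 in I183M/+, 5.27 to 6.97 in I183P/+, 6.04 to 8.28 in delta/+ and 6.72 to 7.19 in those controls. Single atrial markers disagreed. Nppa read 6.68 and 6.54 in control replicates 2 and 3, against 3.99 to 5.34 in I183M/+, 5.17 to 5.80 in I183P/+ and 5.76 to 7.18 in delta/+. In those controls Myl7 read -4.18 and 2.37, Myl4 1.42 and 5.25, and Sln -3.24 and 3.23. All I183M/+ arrays lay between these values for Myl7, Myl4 and Sln. Adipocyte sums were 7.15 to 7.29 in delta/+, against 7.35 to 7.41 in those controls, and overlapped in I183M/+ and I183P/+. Only 3 of the 8 adipocyte markers were well above background on all 11 arrays. Of these, Fabp4 read 7.14 to 7.26 in delta/+, against 7.34 and 7.39, and Retn and Cfd overlapped. Fibroblast, smooth muscle, red cell and macrophage sums overlapped those controls in every line.

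**Figure D1:**
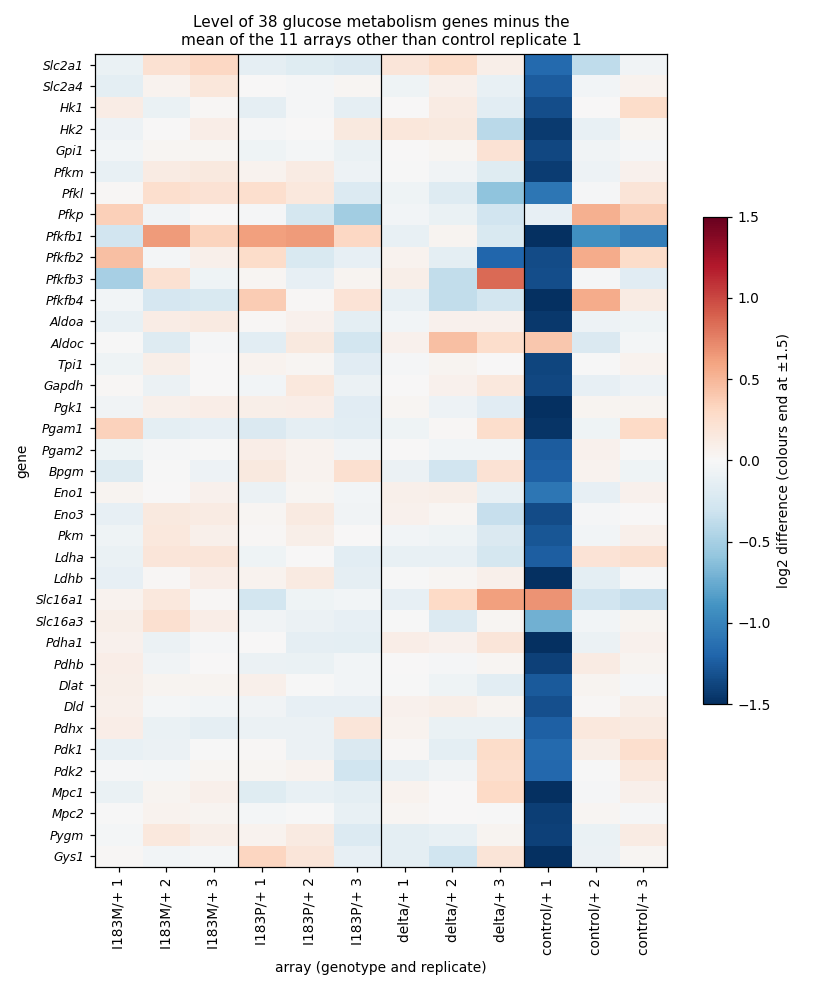
Log2 level of each of the 38 genes (rows) on each of the 12 arrays (columns) minus its mean over the 11 arrays other than control replicate 1, with colours ending at ±1.5. Control replicate 1 is blue for 36 of 38 genes, and Pfkfb1 is bluer in control replicates 2 and 3 than in any mutant array.

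No gene of the 38 passed the threshold of an adjusted p under 0.05 in any of the 6 comparisons, with all arrays or without control replicate 1 (limma over all features, Benjamini-Hochberg). Of all features, 0%, 0.00336% and 0.0739% passed in I183M/+, I183P/+ and delta/+ against control/+ with all arrays, and 0%, 0.0168% and 0.175% without control replicate 1. At an unadjusted p under 0.05 there were 2, 1 and 2 of the 38 genes in these 3 comparisons with all arrays, against 1.48%, 5.2% and 7.44% of all features. Leaving out control replicate 1, there were 3 genes in I183M/+, 3 in I183P/+ and 8 in delta/+, against 6.14%, 8.24% and 15% of all features. Groups did not overlap in the higher direction for 3, 3 and 8 genes without control replicate 1, against 23.5%, 14.5% and 22.8% of features, and in the lower direction for 5, 9 and 8 genes, against 8.76%, 16.1% and 11.5%.

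The median log2 fold of the 38 genes over control/+ was 0.45 in I183M/+, 0.41 in I183P/+ and 0.39 in delta/+ with all arrays, against 0.11, -0.03 and 0.05 for all features. Their medians without control replicate 1 were 0.01, -0.02 and -0.05, against 0.09, 0.01 and 0.16 for all features. Most of the pathway therefore lay close to the control level: without that array 33, 35 and 29 of the 38 genes lay within 0.3 of 0 in I183M/+, I183P/+ and delta/+. Beyond 0.3 lay Slc2a1, Pfkp, Pfkfb1, Pfkfb4 and Slc16a1 in I183M/+, and Pfkp, Pfkfb1 and Pfkfb2 in I183P/+. In delta/+ these 6 lay beyond 0.3 with Pfkl, Aldoc and Ldha. The delta/+ set depended on slide. With slide as a block as well, Gapdh (0.33), Ldhb (0.35), Gys1 (0.32) and Pdhx (-0.46) also lay beyond 0.3. Pfkp (-0.21), Pfkl (0.04) and Ldha (-0.25) then lay within it. With normexp background correction and quantile normalization of all 12 arrays, which forces the arrays to 1 distribution, the medians were 0.03, 0.01 and 0.00.

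**Figure D2:**
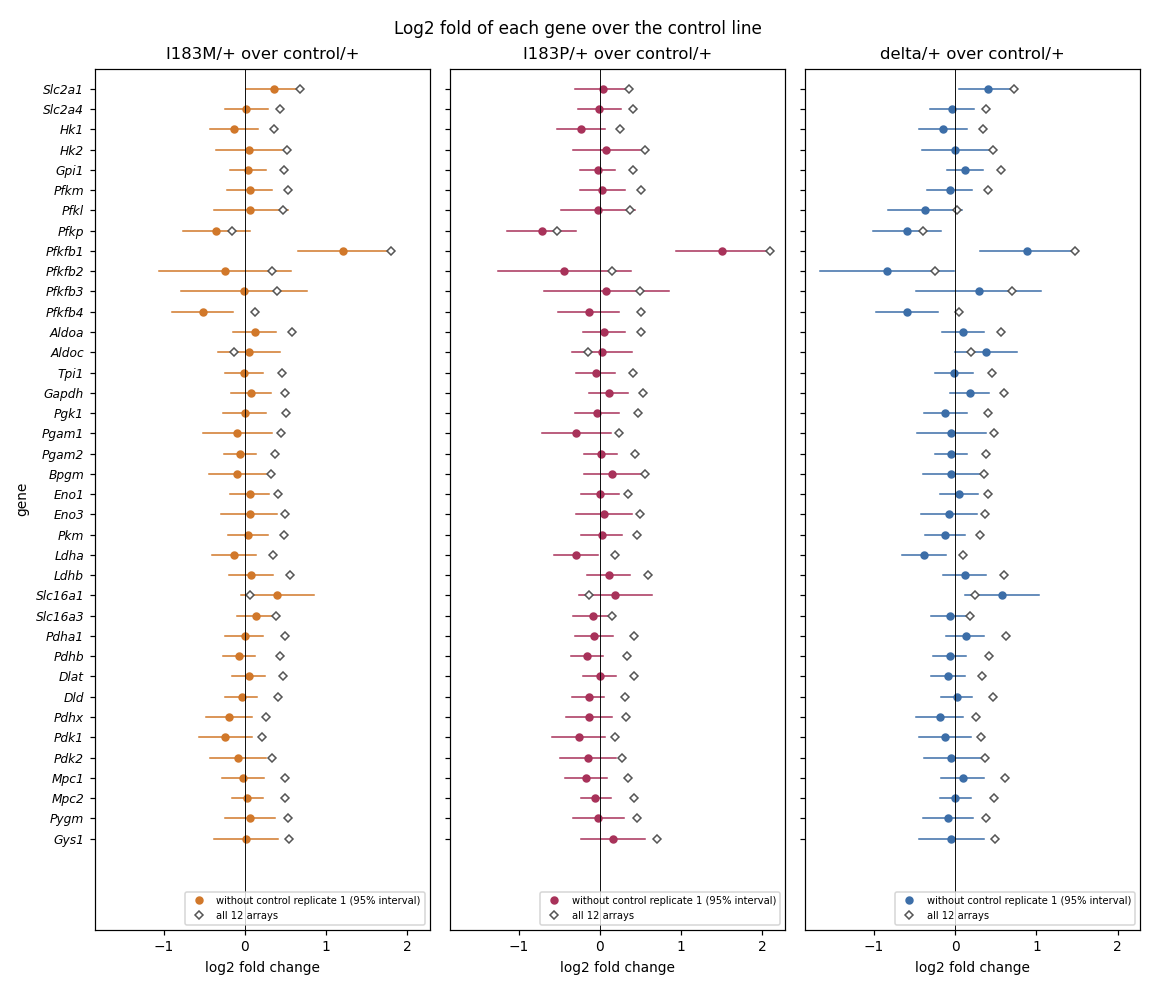
Log2 fold of each of the 38 genes over control/+, for I183M/+, I183P/+ and delta/+ in separate panels. Filled points with 95% limma intervals leave out control replicate 1 and open diamonds use all 12 arrays. The diamonds lie to the right for most genes, Pfkfb1 lies right of 0 in every panel in both fits, and Pfkp lies left of 0 in every panel in both fits.

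Pfkfb1 encodes the form of 6-phosphofructo-2-kinase/fructose-2,6-bisphosphatase known from liver and skeletal muscle. Its level was 3.24, 4.16 and 3.86 in I183M/+ hearts, 4.14, 4.16 and 3.84 in I183P/+ hearts and 3.41, 3.57 and 3.29 in delta/+ hearts, against 0.79, 2.60 and 2.49 in control/+ hearts. All 9 mutant arrays lay above all 3 control arrays. With all arrays the log2 fold over control/+ was 1.80 ± 0.45 in I183M/+, 2.09 ± 0.45 in I183P/+ and 1.47 ± 0.45 in delta/+ (SE, n = 3 each), and the limma adjusted p was 0.877, 0.54 and 0.413.

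The folds of Pfkfb1 without control replicate 1 were 1.21 ± 0.25 in I183M/+, 1.5 ± 0.25 in I183P/+ and 0.88 ± 0.25 in delta/+, with limma adjusted p of 0.622, 0.15 and 0.163. Its p was the smallest of the 38 genes in each of the 3 control comparisons, in both fits. A two-sided exact permutation of the 3 and 3 arrays gave p = 0.1 for each mutant line against control/+, the smallest value that design allows. Within slide 1 without control replicate 1, Pfkfb1 differed from control/+ by 1.21 in I183M/+ and 1.60 in I183P/+. With slide as a block and without control replicate 1, Pfkfb1 differed by 1.19 ± 0.42 in delta/+ (limma adjusted p = 0.522). It passed the threshold against control/+ only under array weights, whose estimation stopped before its tolerance was reached and which gave control replicate 1 a weight of 0.0119, with 1.41 in I183M/+ (limma adjusted p = 0.0456) and 1.62 in I183P/+ (limma adjusted p = 0.0138), and, for I183P/+, with normexp and quantile normalization without control replicate 1, at 1.53 (limma adjusted p = 0.0454). Over its 30 alternatives in I183P/+ the adjusted p ranged from 0.0138 to 0.755, and over its 30 in I183M/+ from 0.0456 to 1.

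Some markers of skeletal muscle were also higher in the mutant lines, and others were not. The summed log2 level of all 13 was 6.28 to 6.39 in I183M/+ hearts, 6.30 to 7.05 in I183P/+ hearts and 6.13 to 6.81 in delta/+ hearts, against 5.37 to 5.72 in control replicates 2 and 3 and 4.34 in control replicate 1. Of that sum on the linear scale, Myl1, which encodes a myosin light chain, made up 65.8% to 80.9% on the mutant arrays and 43.2% to 54.4% on control replicates 2 and 3. Of the 13 markers, 8 were well above background on all 11 arrays other than control replicate 1. All 9 mutant arrays lay above control replicates 2 and 3 for 3 of these 8 (Myl1, Casq1 and Mybpc2). Over the 9 arrays together, the other 5 overlapped (Pvalb, Tnni2, Tnnt3, Tnnc2 and Atp2a1). By line, Tnnc2 was lower, at -1.66 to -1.33 in I183M/+ and -1.94 to -1.47 in I183P/+, against -1.26 and -1.22 in those controls. Tnnt3 was higher in delta/+, at -3.08 to -1.43, against -3.37 and -3.15. Myl1 read 5.63 to 6.74 on the mutant arrays, against 4.84 and 4.16 in control replicates 2 and 3. Atp2a1, the calcium pump of fast fibres, was lower, at 3.59 to 3.80 in I183P/+ hearts and 3.55 to 3.69 in delta/+ hearts, against 4.16 and 4.0 in control replicates 2 and 3, and overlapped in I183M/+. Mylpf was well above background on none of those 11 arrays, and Actn3, Myh1, Myh2 and Myh4, the fast fibre genes, were on 1 or 2 of them. The part of these markers in the Pfkfb1 difference was not tested.

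The starts of Pfkfb1 are shown because it had the smallest p against control/+ among the 38 genes. RefSeq's table for GRCm38.p6 gives 4 starts on chromosome X, + strand, and the 250 bases before each were read from 5′ to 3′ for AAGTG, the core letters bound by NKX2 homeodomains, on both strands (CACTT on the printed strand for the other). The windows were chrX:150587195-150587444, chrX:150587993-150588242, chrX:150589666-150589915 and chrX:150594178-150594427. The first 2 hold 1 match each, in capitals here, and the other 2 hold none.
Pfkfb1 start 1: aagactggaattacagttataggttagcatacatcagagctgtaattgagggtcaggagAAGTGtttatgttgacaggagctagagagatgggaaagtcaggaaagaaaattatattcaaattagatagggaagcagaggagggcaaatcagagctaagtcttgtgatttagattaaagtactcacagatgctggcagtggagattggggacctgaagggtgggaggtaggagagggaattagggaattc
Pfkfb1 start 2: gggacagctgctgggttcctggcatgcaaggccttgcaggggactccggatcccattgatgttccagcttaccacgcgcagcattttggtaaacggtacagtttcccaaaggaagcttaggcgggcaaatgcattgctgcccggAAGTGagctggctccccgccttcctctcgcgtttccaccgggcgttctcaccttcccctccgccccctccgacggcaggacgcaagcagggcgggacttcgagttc
The match begins at base 60 of the window of start 1 and at base 145 of the window of start 2. AAGTG occurs in 40.7% of all 32851 windows of this length in the table and in 24 of 57 windows (42.1%) of the 37 of the 38 genes that had one. The longer TNAAGTG, which contains AAGTG, occurs in none of the 4 windows of Pfkfb1, in 10.1% of all windows and in 3 of the 57. RefSeq's table does not say which start is used in the heart, and the array layout is on mm9, so no probe was placed on these windows.

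Over the 11 arrays without control replicate 1, the genes whose levels followed Pfkfb1 most closely among 17241 named genes were Zfp385b (Pearson r = 0.933), Art4 (0.932), Mtrf1l (0.931), Hsd17b7 (0.92) and Tesc (0.915). These are descriptions over 11 arrays that share the 4 groups and the normalization. Hsd17b7, an enzyme of cholesterol and steroid metabolism, read 1.16 to 1.92 in I183M/+, 1.94 to 2.63 in I183P/+ and 1.54 to 1.74 in delta/+, against 0.64 and 0.58 in control replicates 2 and 3. The level of Mtrf1l spanned only 0.2 over these arrays, against 1.67 for Pfkfb1. Within the 38 genes the closest in the opposite sense was Pdhb, a pyruvate dehydrogenase subunit, at r = -0.858, with a span of 0.23.

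**Figure D3:**
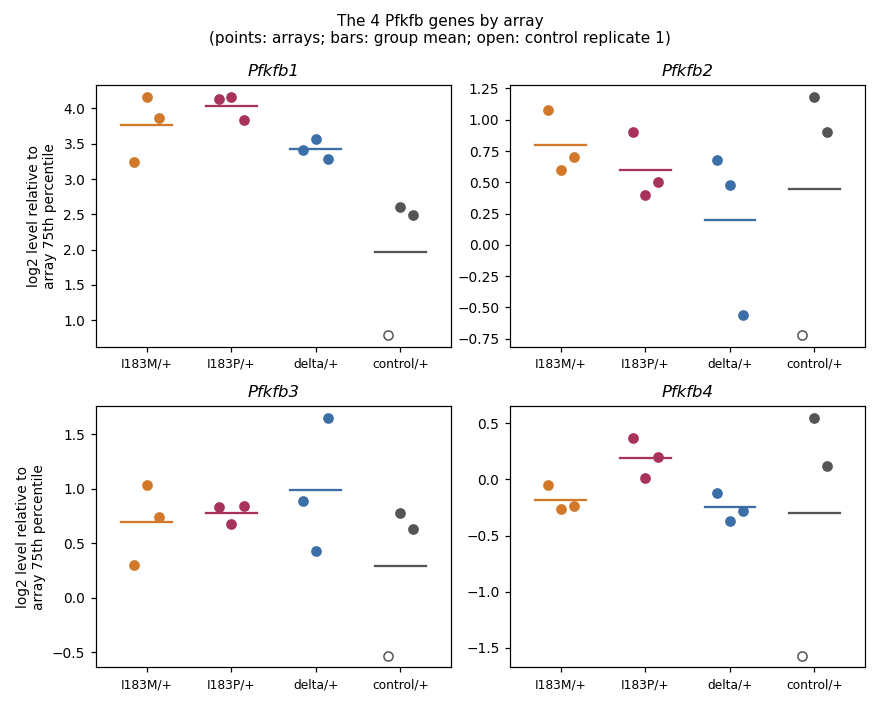
Log2 level of the 4 Pfkfb genes on each array (points), with group means (bars), for I183M/+, I183P/+, delta/+ and control/+. The open circle is control replicate 1. Pfkfb1 is higher on all 9 mutant arrays than on any control array, and the other 3 genes overlap between mutants and control/+.

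Pfkfb2 encodes the form most abundant in heart muscle and regulated there by insulin and adrenaline. Its level was 1.08, 0.60 and 0.70 in I183M/+ hearts, 0.90, 0.40 and 0.50 in I183P/+ hearts and 0.68, 0.48 and -0.56 in delta/+ hearts, against -0.72, 1.18 and 0.90 in control/+ hearts. Delta/+ replicate 3 lay well below the other mutant arrays. With all arrays the folds over control/+ were 0.34 ± 0.50, 0.15 ± 0.50 and -0.25 ± 0.50 in I183M/+, I183P/+ and delta/+. Without control replicate 1 they were -0.25 ± 0.36, -0.44 ± 0.36 and -0.84 ± 0.36, with a limma adjusted p of 0.321 in delta/+.

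Pfkfb3, the inducible form with high kinase activity, read 0.30, 1.03 and 0.74 in I183M/+ hearts, 0.83, 0.68 and 0.84 in I183P/+ hearts and 0.89, 0.43 and 1.65 in delta/+ hearts, against -0.53, 0.78 and 0.63 in control/+ hearts. All 3 mutant groups overlapped control replicates 2 and 3. Folds without control replicate 1 were -0.01 ± 0.34 in I183M/+, 0.08 ± 0.34 in I183P/+ and 0.29 ± 0.34 in delta/+, and with all arrays 0.40, 0.49 and 0.70 (SE 0.41). A second Pfkfb3 probe, well above background on 8 of 12 arrays, gave folds of 0.90, 0.89 and 1.26 without control replicate 1 and -0.40, -0.41 and -0.04 with it.

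Pfkfb4, the testis form that is also induced by low oxygen, read -0.05, -0.26 and -0.24 in I183M/+ hearts, 0.37, 0.01 and 0.20 in I183P/+ hearts and -0.12, -0.37 and -0.28 in delta/+ hearts, against -1.57, 0.55 and 0.12 in control/+ hearts. All I183M/+ and delta/+ arrays lay below control replicates 2 and 3 and above control replicate 1. Without control replicate 1 the fold was -0.52 ± 0.17 in I183M/+, -0.14 ± 0.17 in I183P/+ and -0.59 ± 0.17 in delta/+, with limma adjusted p of 0.727, 1 and 0.165. With all arrays the folds were 0.12, 0.50 and 0.05 (SE 0.45), so the sign in all 3 lines depends on that array.

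Glucose carriers differed from each other. Slc2a1 read 2.05, 2.38 and 2.46 in I183M/+ hearts, 2.02, 1.97 and 1.94 in I183P/+ hearts and 2.34, 2.43 and 2.24 in delta/+ hearts, against 0.99, 1.77 and 2.10 in control/+ hearts. Only the delta/+ arrays all lay above all control/+ arrays. The fold over control/+ was 0.68 ± 0.28 in I183M/+ and 0.72 ± 0.28 in delta/+ with all arrays, and 0.36 ± 0.15 and 0.40 ± 0.15 without control replicate 1, where the limma adjusted p was 0.727 and 0.271. Slc2a4 lay within 0.04 of control/+ in all 3 lines without control replicate 1.

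Among hexokinase and phosphoglucose isomerase genes (Hk1, Hk2, Gpi1), folds without control replicate 1 ran from -0.24 for Hk1 in I183P/+ to 0.12 for Gpi1 in delta/+, and none of the 3 had an unadjusted p under 0.05. Phosphofructokinase-1 is built from muscle (Pfkm), liver (Pfkl) and platelet (Pfkp) subunits. Pfkp read 1.5, 1.09 and 1.14 in I183M/+ hearts, 1.12, 0.88 and 0.62 in I183P/+ hearts and 1.1, 1.04 and 0.85 in delta/+ hearts, against 1.02, 1.67 and 1.51 in control/+ hearts. All 9 mutant arrays lay below control replicates 2 and 3, and control replicate 1 lay among them.

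The Pfkp fold without control replicate 1 was -0.35 in I183M/+, -0.72 ± 0.18 in I183P/+ (limma adjusted p = 0.327) and -0.59 ± 0.18 in delta/+ (limma adjusted p = 0.192). With all arrays it was -0.53 ± 0.24 in I183P/+ and -0.40 ± 0.24 in delta/+. With slide as a block the Pfkp fold in delta/+ was -0.21 ± 0.27 without control replicate 1 and -0.02 with all arrays. A second, dimmer Pfkp probe gave -0.22 in I183P/+ and -0.11 in delta/+ without control replicate 1. Pfkl read 2.83, 3.06 and 3.02 in I183M/+ hearts, 3.06, 2.97 and 2.60 in I183P/+ hearts and 2.74, 2.62 and 2.20 in delta/+ hearts, against 1.72, 2.79 and 3.00 in control/+ hearts. Every delta/+ array lay below control replicates 2 and 3 and above control replicate 1. The delta/+ fold of Pfkl without control replicate 1 was -0.37, and with slide as a block it was 0.04 ± 0.30. The log2 fold of Pfkm, the main subunit of striated muscle, over control/+ lay between -0.07 and 0.06 in the 3 lines without control replicate 1.

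The 11 genes from aldolase to pyruvate kinase, including the 2,3-bisphosphoglycerate enzyme Bpgm, lay between -0.09 and 0.12 in I183M/+, -0.29 and 0.15 in I183P/+ and -0.12 and 0.38 in delta/+ without control replicate 1. Aldoa, the muscle aldolase, read 9.51, 9.73 and 9.75 in I183M/+ hearts, against 8.17, 9.54 and 9.56 in control/+ hearts, with folds of 0.58 ± 0.34 and, without control replicate 1, 0.12 ± 0.11. Gapdh read 9.46, 9.51 and 9.61 in delta/+ hearts, against 8.09, 9.33 and 9.37 in control/+ hearts, with folds of 0.60 ± 0.31 and, without control replicate 1, 0.18 ± 0.11. Bpgm read 1.98, 1.89 and 2.07 in I183P/+ hearts, against 0.61, 1.88 and 1.77 in control/+ hearts, with folds of 0.56 ± 0.32 and, without control replicate 1, 0.15 ± 0.15. These 3 folds all shrank without control replicate 1, and none passed in either fit. Aldoc, the brain aldolase, was a dim probe at -2.31, -1.92 and -2.11 in delta/+ hearts, against -1.96, -2.59 and -2.40 in control/+ hearts, and its delta/+ fold without control replicate 1 was 0.38 ± 0.16 (limma adjusted p = 0.33), or 0.66 ± 0.26 with slide as a block. The block took Gapdh in delta/+ to 0.33 ± 0.17.

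Lactate dehydrogenase A makes lactate from pyruvate, and the B form, predominant in heart, favours the reverse. Ldha read 8.10, 8.39 and 8.39 in I183M/+ hearts, 8.14, 8.21 and 8.04 in I183P/+ hearts and 8.09, 8.09 and 7.94 in delta/+ hearts, against 6.97, 8.41 and 8.44 in control/+ hearts. All 9 mutant arrays lay below control replicates 2 and 3 and above control replicate 1. The Ldha fold without control replicate 1 was -0.13 in I183M/+, -0.30 ± 0.12 in I183P/+ (limma adjusted p = 0.562) and -0.39 ± 0.12 in delta/+ (limma adjusted p = 0.194). With slide as a block the delta/+ fold of Ldha was -0.25 ± 0.20 (limma adjusted p = 0.769). With all arrays the sign turned, to 0.35, 0.19 ± 0.35 and 0.10 ± 0.35. Ldhb lay between 0.08 and 0.12 above control/+ in the 3 lines without control replicate 1. With slide as a block as well, its delta/+ fold was 0.35 ± 0.17.

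The monocarboxylate carriers MCT1 (Slc16a1) and MCT4 (Slc16a3) move lactate across the cell membrane. Slc16a1 read -2.43, -2.32 and -2.46 in I183M/+ hearts, -2.76, -2.55 and -2.52 in I183P/+ hearts and -2.61, -2.18 and -1.87 in delta/+ hearts, against -1.81, -2.77 and -2.83 in control/+ hearts. Here control replicate 1 was the highest of all 12 arrays. The I183M/+ fold was 0.07 ± 0.30 with all arrays and 0.40 ± 0.20 without control replicate 1, where the delta/+ fold was 0.58 ± 0.20 (limma adjusted p = 0.227). With slide as a block as well, the delta/+ fold was 0.44 ± 0.34. The Slc16a1 probe was dim, with a mean level of -2.43. With normexp and quantile normalization it read 7.40, 7.79 and 7.75 in I183M/+ hearts and 7.73, 7.44 and 8.11 in delta/+ hearts. Both groups then overlapped control replicates 2 and 3, at 7.63 and 7.62. Slc16a3 read -0.43, -0.28 and -0.42 in I183M/+ hearts, -0.58, -0.61 and -0.64 in I183P/+ hearts and -0.53, -0.73 and -0.49 in delta/+ hearts, against -1.24, -0.56 and -0.48 in control/+ hearts. Its I183M/+ fold was 0.38 ± 0.22 with all arrays and 0.14 ± 0.11 without control replicate 1.

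**Figure D4:**
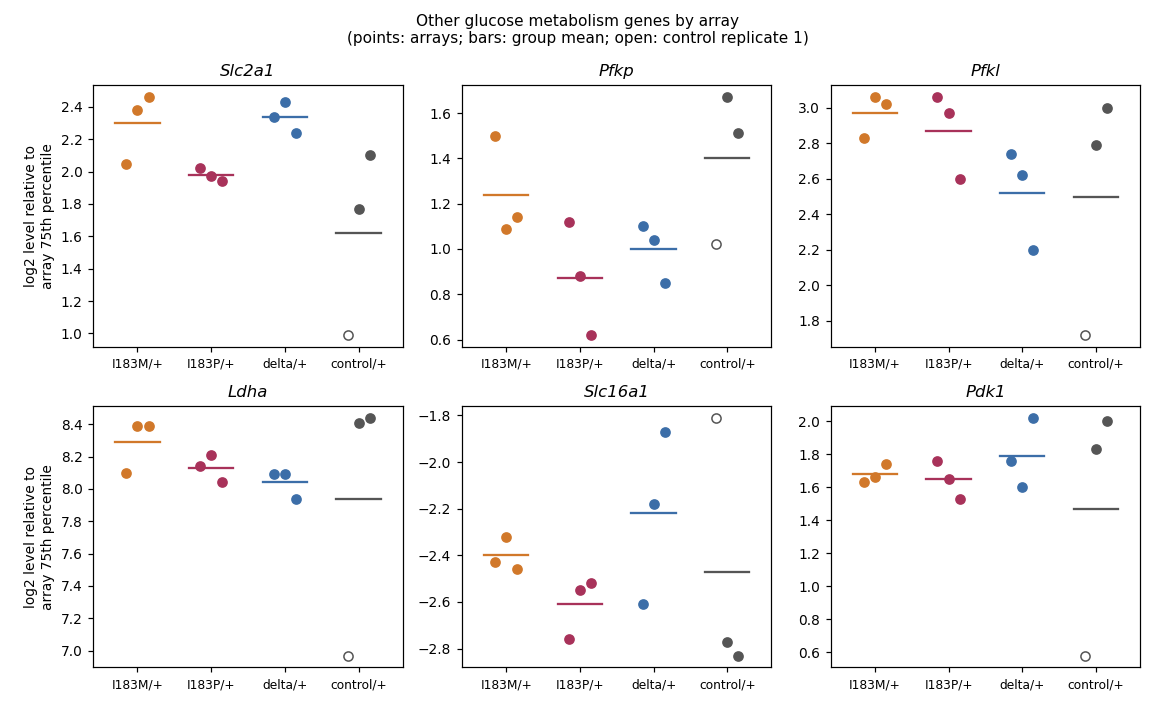
Log2 level of Slc2a1, Pfkp, Pfkl, Ldha, Slc16a1 and Pdk1 on each array (points) with group means (bars). The open circle is control replicate 1. Pfkp and Ldha lie below control replicates 2 and 3 on all 9 mutant arrays, and control replicate 1 lies lowest for Slc2a1, Pfkl, Ldha and Pdk1 and highest for Slc16a1.

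The 9 genes of pyruvate entry and oxidation (the carrier subunits Mpc1 and Mpc2, the complex subunits Pdha1, Pdhb, Dlat, Dld and Pdhx, and the inhibiting kinases Pdk1 and Pdk2) lay between -0.26 and 0.13 of control/+ in all 3 lines without control replicate 1, and none had an unadjusted p under 0.05. With slide as a block as well, the delta/+ fold of Pdhx was -0.46 ± 0.18 (limma, unadjusted p = 0.0349, adjusted p = 0.581). That of Pdk2 was 0.29 ± 0.21. Pdk1 read 1.76, 1.65 and 1.53 in I183P/+ hearts, against 0.58, 1.83 and 2.00 in control/+ hearts. All 3 I183P/+ arrays lay below control replicates 2 and 3, with a fold of -0.26 ± 0.14 without control replicate 1 and 0.18 ± 0.34 with it. Pdha1 read 6.17, 6.13 and 6.25 in delta/+ hearts, against 4.56, 5.98 and 6.13 in control/+ hearts, with folds of 0.62 ± 0.36 and, without control replicate 1, 0.13 ± 0.10, or 0.22 ± 0.17 with slide as a block as well.

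For glycogen, Gys1, the muscle glycogen synthase, read 4.82, 4.68 and 4.38 in I183P/+ hearts, against 2.85, 4.41 and 4.53 in control/+ hearts, and the groups overlapped. Its fold was 0.70 ± 0.40 with all arrays and 0.16 ± 0.17 without control replicate 1. Pygm, muscle glycogen phosphorylase, lay between -0.09 and 0.06 of control/+ in the 3 lines without control replicate 1. With slide as a block as well, the delta/+ fold was 0.32 ± 0.25 for Gys1 and 0.22 ± 0.19 for Pygm. Over the 20 genes not given array by array, folds without control replicate 1 lay between -0.19 and 0.08 in I183M/+, -0.29 and 0.11 in I183P/+ and -0.19 and 0.12 in delta/+. The slide block widened the delta/+ range of these 20 genes, to -0.46 (Pdhx) and 0.35 (Ldhb). With all arrays and no block the same 20 genes all lay above control/+, between 0.24 and 0.60.

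Direct comparisons of the mutant lines do not use the control arrays for their means, and control replicate 1 enters them only through the spread. No gene of the 38 passed in any of the 3, in either fit, against 0% of all features in each with all arrays, and against 0%, 0.0437% and 0.0235% without control replicate 1 for I183P/+ over I183M/+, delta/+ over I183M/+ and delta/+ over I183P/+. At an unadjusted p under 0.05 the 38 genes gave 0 in each with all arrays, against 1.27%, 3.51% and 2.79% of features. Without control replicate 1 they gave 3, 2 and 5 genes, against 9.56%, 11.5% and 12.3%. Groups did not overlap in the higher direction for 2, 2 and 8 of the 38 genes, against 1713, 3351 and 4096 of 29778 features. In the lower direction there were 6, 4 and 3 genes, against 5573, 1860 and 1769 features.

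I183P/+ over I183M/+ differed in the sense of a lower Slc2a1, by -0.32 ± 0.14, with no overlap between the groups (limma without control replicate 1, adjusted p = 0.521). It passed the threshold only with the array weights described for Pfkfb1, at -0.44 (limma adjusted p = 0.0176; 0.0176 to 1 over its 30 alternatives). Slc16a3 was also lower, by -0.23 ± 0.09, Pfkp by -0.37 ± 0.16 with overlapping groups, and Pfkfb4 was higher by 0.38 ± 0.15.

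Delta/+ over I183M/+ showed lower Pfkl (-0.45 ± 0.18, limma adjusted p = 0.383) and Ldha (-0.26 ± 0.11, limma adjusted p = 0.417), each without overlap. Slc16a3 was lower by -0.20 ± 0.09, also without overlap, and Pfkp (-0.24 ± 0.16) and Pfkfb2 (-0.59 ± 0.32) overlapped. Aldoc was higher by 0.33 ± 0.15. These values leave out control replicate 1 for the spread. With slide as a block the fold of Pfkl was -0.03 ± 0.29, of Ldha -0.12 ± 0.19, of Pfkp 0.13 ± 0.26 and of Aldoc 0.60 ± 0.25.

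Delta/+ over I183P/+ showed lower Pfkfb1 (-0.62 ± 0.22, limma adjusted p = 0.36) and Pfkfb4 (-0.45 ± 0.15, limma adjusted p = 0.338), with each delta/+ array below each I183P/+ array. With slide as a block the Pfkfb1 difference was -0.41 ± 0.31. Slc2a1 was higher by 0.36 ± 0.14 and Mpc1 by 0.26 ± 0.10, also without overlap. Mpc1 read 7.94, 7.89 and 8.18 in delta/+ hearts, against 7.71, 7.78 and 7.74 in I183P/+ hearts. Aldoc (0.36 ± 0.15) and Slc16a1 (0.39 ± 0.18) overlapped between the lines.

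Probes of the same gene did not always give the same fold. Of the 38 genes, 25 had 1 probe and 13 had more. The 5 brighter of 7 Gapdh probes gave delta/+ folds of -0.12 to 0.18 without control replicate 1, and the 2 dimmest gave -0.55 and -0.51. The brightest of 3 Ldha probes gave -0.39, and the other 2 gave -0.98 ± 0.14 and -0.92 ± 0.18 in delta/+. The first of these Ldha probes came closest to the threshold in a fit with each probe as a feature (limma adjusted p = 0.0598). The Tpi1 probes gave -0.01 and -0.44 in delta/+, and the Hk1 probes gave -0.15 and -0.67. In each of these 4 genes, which were chosen after their values were seen, the dimmest probe gave a lower fold than the brightest in all 3 lines. Among the 12 genes with more than 1 tested probe, the dimmest gave a lower delta/+ fold by over 0.2 in 5 (Gapdh, Gys1, Hk1, Ldha and Tpi1) and a higher one by over 0.2 in 2 (Pfkfb3 and Pfkp). The sequence and position of these probes were not used here.

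**Figure D5:**
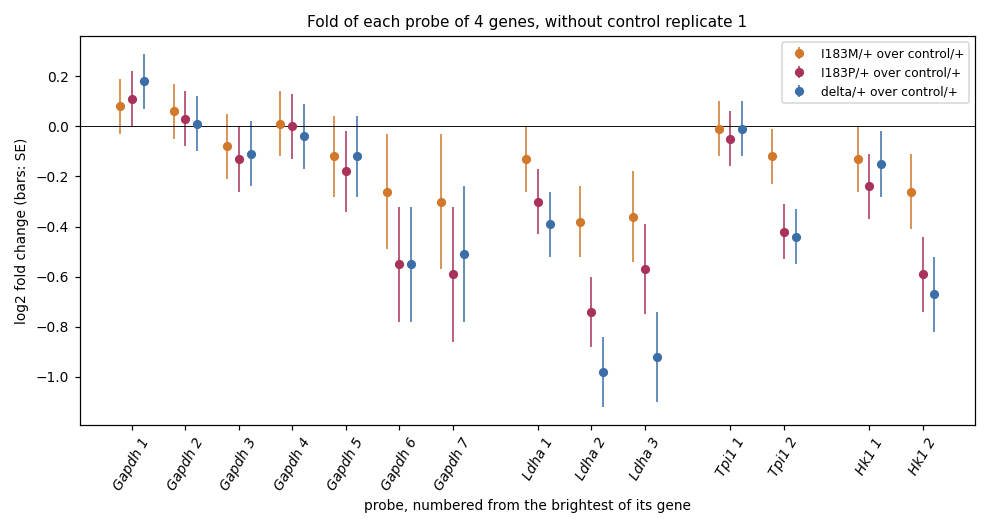
Log2 fold over control/+ (points, with SE) of each tested probe of Gapdh, Ldha, Tpi1 and Hk1, numbered from the brightest of its gene, without control replicate 1, for I183M/+, I183P/+ and delta/+. The dimmest probe of each gene lies below the brightest in all 3 lines. In delta/+ the lowest point of Ldha is its middle probe at -0.98, and its dimmest probe is at -0.92.

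Around the pathway, 5 further lists gave no gene past the adjusted threshold against control/+ in any line, in either fit. With all arrays their medians lay between 0.16 and 0.52, and the values below leave out control replicate 1. Of 42 other glucose and glycogen genes tested, 4 had an unadjusted p under 0.05 in I183M/+, 6 in I183P/+ and 2 in delta/+ without control replicate 1, against 6.14%, 8.24% and 15% of all features. The list medians were 0.01, -0.09 and 0.01. Ppp1r3d, which targets protein phosphatase 1 to glycogen, read 2.98, 3.49 and 3.40 in I183M/+ hearts, 3.68, 3.68 and 3.71 in I183P/+ hearts and 3.45, 3.58 and 3.23 in delta/+ hearts, against 2.02, 2.73 and 3.00 in control/+ hearts. The I183P/+ and delta/+ arrays all lay above the control/+ arrays, and the folds without control replicate 1 were 0.42 ± 0.17, 0.83 ± 0.17 and 0.55 ± 0.17 (limma adjusted p 0.727, 0.253 and 0.199). Phkg1, the muscle catalytic subunit of phosphorylase kinase, had folds of 0.73 ± 0.31, 0.88 ± 0.31 and 0.45 ± 0.31, with all 9 mutant arrays above the control/+ arrays. Gpd1, which links glycolysis to glycerol 3-phosphate, had folds of -0.07, 0.40 and -0.12.

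Of 11 tested genes that control pyruvate dehydrogenase or supply pyruvate by other routes, list medians without control replicate 1 were 0.00, 0.04 and 0.08 in I183M/+, I183P/+ and delta/+. Pdp2, a phosphatase that activates the complex, read 3.41, 3.20 and 3.10 in I183P/+ hearts, against 1.43, 2.47 and 2.45 in control/+ hearts, a fold of 0.77 ± 0.27 without control replicate 1 (limma adjusted p = 0.49). Its delta/+ fold was -0.20 ± 0.27. Pdp1, the other phosphatase, had folds of 0.33, 0.42 and 0.21, and the malic enzymes Me1 and Me3 lay between 0.00 and 0.23.

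The 23 tricarboxylic acid cycle genes had medians of 0.02, -0.04 and 0.02 without control replicate 1, with 0, 1 and 2 at an unadjusted p under 0.05, against 6.14%, 8.24% and 15% of all features. Mdh1, Idh2 and Fh1 had delta/+ folds of 0.21, 0.17 and 0.16, and Got2 of 0.00. The 16 pentose phosphate and hexosamine genes had medians of -0.03, -0.01 and 0.00, and Uap1, which makes UDP-N-acetylglucosamine, had a delta/+ fold of 0.22. Rpe and Taldo1 lay between -0.04 and 0.13 in the 3 lines, and H6pd between -0.20 and 0.11.

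Of 35 insulin and glucose signalling genes, 2, 5 and 8 had an unadjusted p under 0.05 in I183M/+, I183P/+ and delta/+ without control replicate 1, against 6.14%, 8.24% and 15% of all features, with medians of -0.06, -0.04 and -0.11. Mlxipl, the glucose-responsive transcription factor ChREBP, read 3.51, 3.50 and 3.55 in I183P/+ hearts, against 1.72, 3.28 and 2.81 in control/+ hearts, a fold of 0.48 ± 0.16 without control replicate 1 (limma adjusted p = 0.453). Prkab1, a subunit of AMP-activated protein kinase, had folds of 0.06, -0.57 and -0.51 ± 0.22. Mlxip, a relative of Mlxipl, had 0.08, 0.26 and -0.28 ± 0.12, and Gsk3b had 0.08, 0.32 and -0.03.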

How the data were processed

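Total RNA labelled with Cy3 was hybridised to single-colour Agilent arrays, 12 in all. Per the file headers, spots were quantified by Feature Extraction 11.0.1.1 on a probe layout of mm9. The deposited files hold intensity values per spot that were not normalized between arrays, and the authors' deposited table of processed values has a log2 scale, by its match to the scanner values, with array medians of 6.89 to 6.94. Its rank correlation with the processed intensity was 0.961 to 0.998, its exact centring is not stated, and it was used as an alternative.

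The log2 processed intensity of spots that were neither control nor outlier spots was averaged per probe, less the 75th percentile of that array. A RefSeq gene table (GRCm38.p6) named 27235 of 55681 probes, and 96 probes with a missing value were left out. Probes well above background on at least 3 arrays were tested (41569), and a gene was read from its brightest one. limma 3.58.1 in R 4.3.3 was fitted over all 12 arrays, and again without control replicate 1, with Benjamini-Hochberg adjustment over 29778 features. Every adjusted p is from limma. No columns were pooled, and the number of arrays limits the precision. The limma fit was tested on simulated data with independent features, no outlier array and no slide effect. That test does not cover an array such as control replicate 1.

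Members, lists and settings were chosen with earlier results of these data known. Array values are given for genes past the threshold, the 4 smallest p of each comparison in either fit and all Pfkfb genes, and for up to 4 genes of each further list by smallest p, of which 1 result is not reported here. Promoter windows are from RefSeq (GRCm38.p6). Same-numbered deviations from group means correlated at 0.50 to 0.79 in all 3 pairs of I183M/+ and control/+, which met the criterion of every pair over 0.1. The control/+ group mean includes control replicate 1, which enters all these deviations. The labels give no pairing, and a pairing of samples cannot be read from these correlations. In the other 5 comparisons 3 of 15 correlations were over 0.1 (-0.81 to 0.32). Alternatives covered normalization, the filter, the probe rule, array weights, slides, a replicate block and each array left out.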

Additional observations from a re-analysis of the deposited data

How the results depend on the processing

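The number of the 38 genes past the adjusted threshold was 0 in 171 of 175 counts over 31 alternatives and 6 comparisons. It was 1 under array weights in I183M/+ and in I183P/+ over control/+ (Pfkfb1 in both) and in I183P/+ over I183M/+ (Slc2a1), and 1 in I183P/+ over control/+ with normexp and quantile without control replicate 1 (Pfkfb1). Leaving out each array in turn gave 0 in every comparison. Pfkfb1 kept its direction in I183M/+, I183P/+ and delta/+ over control/+ under every alternative, between 1.21 and 2.12, 1.5 and 2.87, and 0.85 and 1.84. The median of the 38 genes over control/+ ran, with each array left out, from 0.01 to 0.69 in I183M/+, -0.02 to 0.64 in I183P/+ and -0.05 to 0.65 in delta/+, with the lowest value each time without control replicate 1, and from -0.08 to -0.01, -0.04 to -0.01 and -0.01 to 0.07 in I183P/+ over I183M/+, delta/+ over I183M/+ and delta/+ over I183P/+.

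The medians in I183M/+, I183P/+ and delta/+ over control/+ were 0.03, 0.01 and 0.00 with normexp and quantile, 0.03, 0.00 and -0.02 with quantile on processed signals, 0.04, 0.01 and -0.02 in the authors' table, 0.01, -0.02 and -0.05 with array weights, and 0.01, -0.01 and -0.06 with normexp and quantile without control replicate 1. They were 0.01 in I183M/+ and 0.02 in I183P/+ with slide as a block, and likewise within slide 1, both without control replicate 1 (these 2 alternatives were chosen after seeing the data). The delta/+ median was 0.07 with slide as a block without control replicate 1, against -0.05 without the block. Subtracting each array's median instead of its 75th percentile gave 1.20 in I183P/+ over control/+, 0.50 in I183P/+ over I183M/+ and -0.37 in delta/+ over I183P/+, where the median of all features also moved, to 0.76, 0.46 and -0.26. The replicate block left the Pfkfb1 folds at 1.80, 2.09 and 1.47 and ended or made no call in any comparison (adjusted p of 0.913, 0.584 and 0.516), and 2, 1 and 2 genes had an unadjusted p under 0.05 with the block as without it. Of 12 arrays, 3 correlated best with their own number.

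A total of 82 folds of genes that did not pass had the opposite sign under an alternative, 34 of them under settings that left out control replicate 1, and 2 of the 82 round to 0.00. The cause was not tested. In I183M/+ over control/+, Pfkfb2, Pfkfb4 and Slc16a1 had -0.02, -0.24 and -0.29 with the percentile over probes above background on all arrays. Pfkfb2 and Pfkfb4 had -0.24 and -0.41 with array weights, -0.20 and -0.47 with normexp and quantile without control replicate 1, and -0.25 and -0.52, with Pfkfb3 at -0.01, with slide as a block or within slide 1 without control replicate 1. Pfkfb3 had 0.00 with the mean of probes. In I183P/+ over control/+, Pfkfb2, Ldha and Pdk1 had -0.21, -0.17 and -0.18 with that percentile. Pfkfb2, Pfkfb4, Ldha and Pdk1 had -0.40, -0.05, -0.26 and -0.30 with array weights, -0.42, -0.12, -0.29 and -0.23 with normexp and quantile without control replicate 1, and -0.39, -0.14, -0.25 and -0.20 with slide as a block or within slide 1 without control replicate 1. Ldha and Pdk1 had -0.27 and -0.02 with normexp and quantile, -0.26 and -0.03 with quantile on processed signals, and -0.26 and -0.01 in the authors' table. Ldha had -0.05 with the mean of probes and Pfkp 0.26 with array medians.

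In delta/+ over control/+, Pfkfb4 and Ldha had -0.34 and -0.29 with that percentile, -0.41 and -0.39 with array weights, -0.45 and -0.43 with normexp and quantile without control replicate 1, and -0.60 and -0.25 with slide as a block without control replicate 1. Pfkfb2 and Ldha had 0.06 and -0.41 with normexp and quantile, 0.19 and -0.44 with quantile on processed signals, and 0.08 and -0.41, with Gapdh at -0.02, in the authors' table. Ldha had -0.28 with the mean of probes and Pfkfb2 0.13 with array medians. Between lines, Pfkp had 0.13 in delta/+ over I183M/+ with slide as a block, with and without control replicate 1. With array medians, Slc2a1, Pfkp and Slc16a3 had 0.24, 0.19 and 0.32 in I183P/+ over I183M/+, and Slc2a1, Aldoc, Slc16a1 and Mpc1 had -0.05, -0.05, -0.02 and -0.15 in delta/+ over I183P/+. With each array left out, I183M/+ over control/+ ranged from -0.25 to 0.70 for Pfkfb2, -0.01 to 0.64 for Pfkfb3, -0.52 to 0.54 for Pfkfb4 and -0.12 to 0.40 for Slc16a1. I183P/+ over control/+ ranged from -0.44 to 0.51 for Pfkfb2, -0.14 to 0.92 for Pfkfb4, -0.30 to 0.44 for Ldha and -0.26 to 0.45 for Pdk1. Delta/+ over control/+ ranged from -0.84 to 0.13 for Pfkfb2, -0.59 to 0.47 for Pfkfb4 and -0.39 to 0.35 for Ldha.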
